A study of Mus musculus with 12 samples.

Results

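The genes described here are 8 markers of bile duct epithelium, of liver progenitor cells and of the fetal liver: Sox9, Krt7, Krt19, Epcam, Prom1, Cd24a, Spp1 and Afp. They were chosen by name, as the probes whose RefSeq identifier on the array maps to these genes. They are 8 of the 19259 genes with a symbol on the array, and each had 1 probe of the 37246 on it. All 8 passed the filter on dim probes, which 31168 probes of 17002 named genes and of unnamed transcripts passed. The identifiers in the files were NM_011448 for Sox9 and NM_008471 for Krt19 (both on chromosome 11), NM_033073 for Krt7 (chromosome 15), NM_008532 for Epcam (chromosome 17), NM_009846 for Cd24a (chromosome 10), and NM_008935 for Prom1, NM_009263 for Spp1 and NM_007423 for Afp (all on chromosome 5).

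Bile in the liver leaves through ducts lined by cholangiocytes, epithelial cells that express simple-epithelial keratins, the adhesion protein EpCAM and the transcription factor SOX9. Hepatocytes and cholangiocytes both descend from fetal hepatoblasts, which secrete alpha-fetoprotein, and cells that carry duct or progenitor markers expand in many injuries in which hepatocytes cannot divide. After partial hepatectomy the remaining hepatocytes themselves enter the cell cycle, and hepatocyte reprogramming towards a ductal state is known mainly from chronic injury.

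Liver RNA came from male C57BL/6 mice aged 6 weeks, collected 0, 1.5, 12 and 24 h after surgical removal of 2/3 of the liver. Each time point had 3 mice, each on its own 1-colour array, which gives 12 arrays. The mice at 0 h were the baseline, and no sham-operated group is among the samples, so the loss of liver mass cannot be told apart from surgery itself. The labels do not give the time of day at which tissue was taken. Whole liver was extracted, so fewer cells of a type and less RNA per cell cannot be told apart.

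Values below are normalised log2 signals, obtained by subtracting each array's own 75th percentile from its log2 processed intensities, so a value of 0 is a probe as bright as that percentile. Levels of different probes are not comparable with each other. The median of the 20 negative control probes of an array ranged from -8.37 (24 h replicate 2) to -6.07 (12 h replicate 3) on this scale. Each of 7 genes was called well above background on all 12 arrays, and Cd24a on 11 of them, the exception being 12 h replicate 3. The hepatocyte marker tyrosine aminotransferase (Tat) averaged 7.64 at 0 h, and all 10 listed hepatocyte markers passed the filter. The labels name no slides, and arrays with the same scan date and time were taken to lie on 1 slide. The 24 h replicate 2 array stood apart: it lay alone on its slide, its 75th percentile of intensity was 6018 against 428 to 584 on the other arrays, and its correlation across probes was 0.912 with 24 h replicate 1 and 0.906 with replicate 3, while replicates 1 and 3 correlated at 0.986. Results whose call it changed, or whose value it moved by over 1.5 times, are therefore also given without it. Slide 1 carried the 0 h arrays and 1.5 h replicate 1, slide 2 the other 1.5 h arrays with 12 h replicates 1 and 2, and slide 3 the remaining 12 h and 24 h arrays, so no slide held 0 h together with 12 h or 24 h. The median difference of all tested probes was 0.17, 0.42 and -0.15 at 1.5, 12 and 24 h against 0 h and -0.49 at 24 h against 12 h, which is the level against which a difference can be read.

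RefSeq's promoter table held windows for 5 of the genes, 7 windows in all with 2 each for Prom1 and Spp1. The most upstream window of each of 4 genes is shown. Krt7 and Prom1 were chosen because they varied together between arrays when 24 h replicate 2 was left out. Spp1 and Afp were chosen because they had their highest mean at 24 h and lower levels at 12 h. Sox9, Krt19, Cd24a and Prom1 also had their highest mean at 24 h and a lower mean at 12 h. Each window is the 250 bases before the transcription start in RefSeq's annotation of GRCm38.p6, printed 5′ to 3′ on the strand of the gene, with matches to the motifs searched in capitals. The windows lie at chr15:101412153-101412402 on the plus strand for Krt7, chr5:44101737-44101986 on the minus strand for Prom1, chr5:104434861-104435110 on the plus strand for Spp1 and chr5:90490464-90490713 on the plus strand for Afp.
Krt7: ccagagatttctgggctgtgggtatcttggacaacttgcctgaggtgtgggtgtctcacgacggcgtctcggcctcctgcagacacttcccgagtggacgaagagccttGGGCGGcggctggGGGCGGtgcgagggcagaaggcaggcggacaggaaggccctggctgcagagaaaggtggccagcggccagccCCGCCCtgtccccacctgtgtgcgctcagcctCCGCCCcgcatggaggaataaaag
Prom1: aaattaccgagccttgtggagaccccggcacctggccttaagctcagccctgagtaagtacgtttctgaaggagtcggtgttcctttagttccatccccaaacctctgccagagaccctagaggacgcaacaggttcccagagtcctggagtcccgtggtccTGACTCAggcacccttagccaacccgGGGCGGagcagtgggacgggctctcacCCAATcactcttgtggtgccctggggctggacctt
Spp1: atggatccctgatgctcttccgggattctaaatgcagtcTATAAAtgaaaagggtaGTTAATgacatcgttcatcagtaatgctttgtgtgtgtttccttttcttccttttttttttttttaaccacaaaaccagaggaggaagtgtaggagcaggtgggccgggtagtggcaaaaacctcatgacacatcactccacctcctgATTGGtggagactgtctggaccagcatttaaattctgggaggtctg
Afp: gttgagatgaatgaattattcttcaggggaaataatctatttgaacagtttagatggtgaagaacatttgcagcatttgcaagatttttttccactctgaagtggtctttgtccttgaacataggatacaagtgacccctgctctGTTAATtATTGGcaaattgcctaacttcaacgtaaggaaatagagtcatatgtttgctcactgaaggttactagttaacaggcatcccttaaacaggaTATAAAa

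The searches covered both strands of 32851 promoter windows of the same length, with positions counted from -1 at the base before the start. The GC box GGGCGG was found 4 times in the Krt7 window and once in that of Prom1 (-62 to -57), and 32.7% of all windows held it. The Prom1 window also held the AP-1 motif TGANTCA as TGACTCA (-88 to -82), present in 6.75% of windows, and the CCAAT box, present in 33.8%. The other Prom1 window, not printed, held an AP-1 match as TGAATCA (-189 to -183). In the Afp window the letters GTTAAT, the left arm of the HNF1 motif, stood at -105 to -100 (6.43% of windows), a CCAAT box on the other strand at -98 to -94 and the TATA box TATAAA at -7 to -2 (12.4%). The Spp1 window held TATAAA at -211 to -206, GTTAAT at -194 to -189 and a CCAAT box on the other strand at -46 to -42. The complete palindromic HNF1 motif (0.00913% of windows), the STAT motif TTCNNNGAA (7.02%), the TEAD motif GGAATG (12.6%) and the RBPJ motif GTGGGAA (5.42%) had no match in these 4 windows. GC content was 66.0% for Krt7 and 59.2% for Prom1, above the median of 52.4% over all windows, and 43.6% for Spp1 and 36.0% for Afp, below it. The Epcam window, not printed, had 56.4% GC and 1 GC box.

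Of the 8 genes, Sox9 was the gene that passed the test across all probes, and it was higher at 12 h and 24 h than at 0 h. Sox9 encodes a transcription factor that specifies bile duct cells and is also expressed in some hepatocytes beside the portal tracts. Its normalised log2 signals were -2.27, -1.80 and -1.71 at 0 h, -2.48, -2.19 and -1.66 at 1.5 h, -0.32, -0.23 and -0.36 at 12 h, and -0.35, 0.82 and -0.06 at 24 h. Every array at 12 h and 24 h lay above every array at 0 h and 1.5 h. By mean level the order was 24 h, 12 h, 0 h and 1.5 h, where 24 h overlapped 12 h and 0 h overlapped 1.5 h. At 12 h Sox9 rose 3.08-fold against 0 h (log2 1.62 ± 0.34, standard error; 95% interval 0.87 to 2.37; adjusted p = 0.00971). It rose 4.18-fold at 24 h against 0 h (log2 2.06 ± 0.34; 95% interval 1.31 to 2.81; adjusted p = 0.00806). The difference between 24 h and 12 h was 0.44 ± 0.34 (adjusted p = 0.32; 0.10 without 24 h replicate 2), and that between 1.5 h and 0 h was -0.19 ± 0.34 (adjusted p = 0.881). Both rises kept their call without 24 h replicate 2, at 3.08-fold for 12 h (adjusted p = 0.000754) and 3.3-fold for 24 h (adjusted p = 0.00372). Relative to the median of all probes the differences were 1.20 at 12 h and 2.21 at 24 h.

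No slide held 0 h together with 12 h or 24 h, so the Sox9 rise from 0 h could not be read within a slide. On slide 1 the 1 array at 1.5 h stood at -2.48, against an average of -1.93 on 3 arrays at 0 h. On slide 2 Sox9 averaged -0.28 on 2 arrays at 12 h and -1.92 on 2 arrays at 1.5 h, a difference of 1.65 with no overlap. On slide 3 the 2 arrays at 24 h averaged -0.20 against -0.36 on the 1 array at 12 h. With slide as a block in limma, the differences from 0 h were 1.09 at 12 h (adjusted p = 0.163) and 1.25 at 24 h (adjusted p = 0.389), and neither call held. The call at 12 h was also lost without 0 h replicate 1 (1.45, adjusted p = 0.0519), and both were lost with normexp background correction (1.20 with adjusted p = 0.132 at 12 h, and 1.50 with adjusted p = 0.108 at 24 h).

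**Figure D1:**
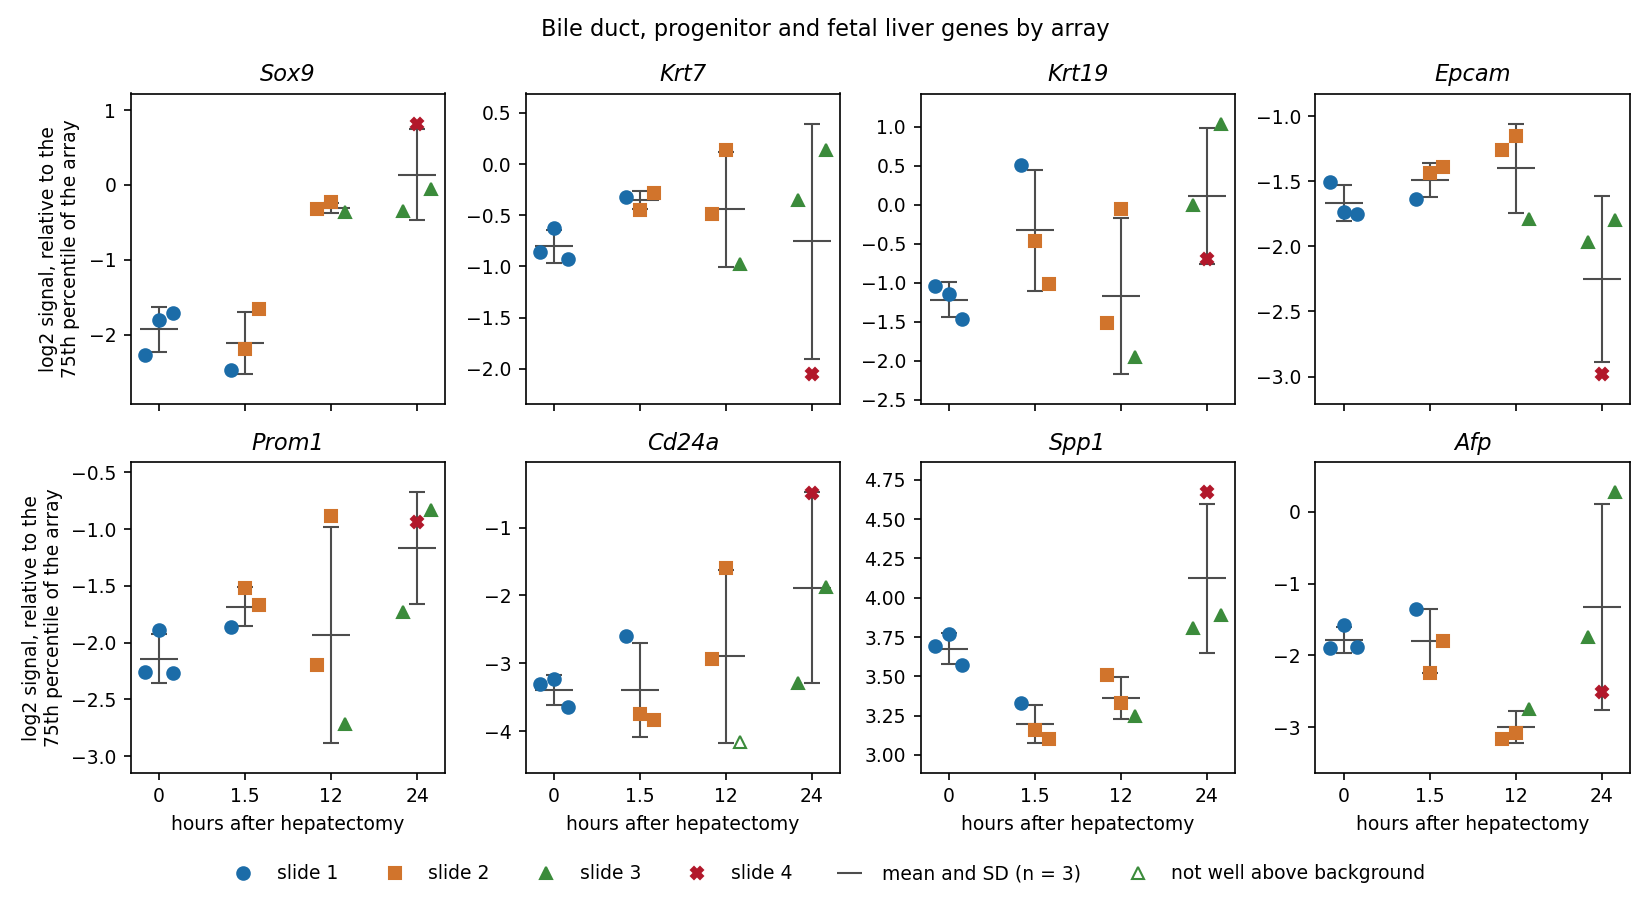
Normalised log2 signal (vertical axis, relative to the 75th percentile of the array) of the 8 genes at 0, 1.5, 12 and 24 h after hepatectomy (horizontal axis), with 1 point per array marked by slide, and the mean and SD of the 3 arrays of a time point as lines. Sox9 lies between -0.36 and 0.82 at 12 and 24 h and between -2.48 and -1.66 at 0 and 1.5 h, while Afp at 12 h (-3.16 to -2.74) lies below each other array.

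Krt7 and Krt19 encode keratins of simple epithelia that mark cholangiocytes, and neither passed the test in any comparison. Krt7 stood at -0.86, -0.62 and -0.93 at 0 h, -0.32, -0.45 and -0.28 at 1.5 h, -0.49, 0.14 and -0.98 at 12 h, and -0.35, -2.05 and 0.14 at 24 h. All 3 arrays at 1.5 h lay above those at 0 h, and the 24 h group held both the lowest value and, level with an array at 12 h, the highest. Each neighbour in the order of mean levels (1.5 h, 12 h, 24 h, 0 h) overlapped the next. The difference between 1.5 h and 0 h was 0.45 ± 0.49 (adjusted p = 0.82). At 24 h against 0 h it was 0.05 ± 0.49 (adjusted p = 0.967) with all arrays and 0.69 ± 0.30 (adjusted p = 0.141) without 24 h replicate 2, which was the array at -2.05.

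Krt19 stood at -1.04, -1.15 and -1.47 at 0 h, 0.51, -0.47 and -1.02 at 1.5 h, -1.52, -0.05 and -1.95 at 12 h, and 0.00, -0.70 and 1.04 at 24 h. The 3 arrays at 0 h were close to each other, whereas at each later time the values spread over at least 1.53 log2 units. All arrays at 1.5 h and at 24 h lay above those at 0 h, and in the order of means (24 h, 1.5 h, 12 h, 0 h) each neighbour overlapped the next. The difference was 1.33 ± 0.58 at 24 h against 0 h (95% interval 0.06 to 2.60; unadjusted p = 0.0413, adjusted p = 0.215 in limma) and 1.29 ± 0.58 at 24 h against 12 h (adjusted p = 0.12). Leaving out 24 h replicate 2 gave 1.74 ± 0.58 (adjusted p = 0.0652) and 1.70 ± 0.58 (adjusted p = 0.0685). Within slide 3 the 2 arrays at 24 h averaged 0.52 against -1.95 on the 1 array at 12 h. With slide as a block the 24 h to 12 h difference was this same difference on slide 3 (2.48), and it passed (adjusted p = 0.0466). It rests on 12 h replicate 3, where 63.25% of all probes were well above background. On slide 2, 12 h replicate 2 stood at -0.05, within the range at 24 h. Mesothelial cells of the liver capsule also express these keratins. The summed linear level of 6 mesothelial markers, of 7 listed, was 0.42 to 0.442 at 0 h and 0.691 to 0.951 at 1.5 h. It was 0.806 to 0.904 at 12 h and 0.732 to 1.04 at 24 h. On an array at 0 h as few as 2 of the 6 were well above background, so the sums at 0 h lay near background. The mesothelial gene Msln was higher than at 0 h by 2.74 at 12 h (adjusted p = 0.000598) and by 3.18 at 24 h (adjusted p = 0.000703). At 1.5 h it differed by 2.41 without passing (adjusted p = 0.0583). Krt19 differed from 0 h by 0.89 at 1.5 h (adjusted p = 0.782), by 0.04 at 12 h (adjusted p = 0.961) and by 1.33 at 24 h (adjusted p = 0.215). The part of mesothelial cells in the keratin values was not tested.

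Epcam and Prom1 encode surface proteins of duct cells, an adhesion molecule and the membrane glycoprotein CD133 used to sort progenitors. Epcam stood at -1.51, -1.74 and -1.75 at 0 h, -1.64, -1.44 and -1.39 at 1.5 h, -1.26, -1.15 and -1.79 at 12 h, and -1.97, -2.98 and -1.80 at 24 h. The 24 h arrays were the lowest of the 12, and by mean the order was 12 h, 1.5 h, 0 h and 24 h, with overlap between neighbours except between 0 h and 24 h. The difference was -0.85 ± 0.33 at 24 h against 12 h (95% interval -1.57 to -0.13; adjusted p = 0.0861) and -0.58 ± 0.33 at 24 h against 0 h (adjusted p = 0.339). Their values without 24 h replicate 2, the lowest array, were -0.48 ± 0.22 (adjusted p = 0.148) and -0.22 ± 0.22 (adjusted p = 0.544).

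Prom1 stood at -2.26, -1.89 and -2.27 at 0 h, -1.86, -1.52 and -1.67 at 1.5 h, -2.20, -0.88 and -2.72 at 12 h, and -1.73, -0.94 and -0.83 at 24 h. The arrays at 1.5 h and 24 h all lay above those at 0 h, and the 12 h group spanned 1.83 log2 units around them. In the order of means (24 h, 1.5 h, 12 h, 0 h) each neighbour overlapped the next. The difference at 24 h against 0 h was 0.97 ± 0.43 (95% interval 0.03 to 1.92; adjusted p = 0.224), and 0.86 ± 0.46 (adjusted p = 0.225) without 24 h replicate 2.

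Cd24a encodes a glycoprotein anchored in the outer membrane of many epithelial and blood cells. Its probe stood at -3.31, -3.23 and -3.64 at 0 h, -2.60, -3.75 and -3.84 at 1.5 h, -2.93, -1.60 and -4.15 at 12 h, and -3.29, -0.49 and -1.87 at 24 h. The last 12 h value was not well above background. All time points overlapped, and the range within 24 h (2.80 log2 units) exceeded the difference of 1.51 ± 0.73 between 24 h and 0 h (95% interval -0.11 to 3.12; adjusted p = 0.271). That difference was 0.81 ± 0.68 (adjusted p = 0.441) without 24 h replicate 2, the highest array. Neutrophils and B cells carry CD24 too. The summed level of 9 neutrophil markers (of 10 listed) was 27.8 to 43.7 at 24 h and 1.76 to 2.4 at 0 h, and that of 5 B cell markers (of 7 listed) was 0.696 to 2.49 at 24 h and 2.07 to 2.74 at 0 h. The highest neutrophil sum and the lowest B cell sum at 24 h were both those of 24 h replicate 2, without which the neutrophil sum reached 32.2. Of the listed markers outside these sums, Ltf of neutrophils passed the background call on 2 arrays and Cd79a of B cells on none. Their part in the Cd24a values was not tested.

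Spp1 encodes osteopontin, a secreted phosphoprotein made in liver by cholangiocytes and also by macrophages and activated stellate cells. It stood at 3.69, 3.77 and 3.57 at 0 h, 3.33, 3.16 and 3.10 at 1.5 h, 3.51, 3.33 and 3.25 at 12 h, and 3.81, 4.67 and 3.89 at 24 h. All arrays at 1.5 h and 12 h lay below those at 0 h, and all at 24 h lay above them, with 3.81 at 24 h and 3.77 at 0 h as the nearest arrays. The order of means was 24 h, 0 h, 12 h and 1.5 h, with overlap only between the last 2. Spp1 differed by -0.48 ± 0.27 at 1.5 h against 0 h (95% interval -1.06 to 0.10; adjusted p = 0.777) and by 0.76 ± 0.27 at 24 h against 12 h (95% interval 0.17 to 1.34; adjusted p = 0.071). At 24 h against 0 h Spp1 differed by 0.45 ± 0.27 (adjusted p = 0.369), and by 0.17 ± 0.18 (adjusted p = 0.542) without 24 h replicate 2. Without 24 h replicate 2, its highest array, the 24 h to 12 h difference was 0.49 ± 0.18 (adjusted p = 0.0839), and the F test for any time against 0 h passed (adjusted p = 0.0365, against 0.0881 with all arrays). The summed level of 9 macrophage markers, of 11 listed, was 18.7 to 34.8 at 0 h, 23.2 to 42.8 at 1.5 h, 20.2 to 37.1 at 12 h and 38 to 62.2 at 24 h. The lowest sum at 24 h, 38 on 24 h replicate 2, lay close to the highest at 12 h, 37.1. Of these 9, Adgre1 (log2 2.09, adjusted p = 0.013) and Vsig4 (1.45, adjusted p = 0.0229) rose at 24 h against 12 h. At 12 h against 0 h Marco had risen (2.44, adjusted p = 0.00814), while Csf1r (-1.27, adjusted p = 0.0381) and Vsig4 (-1.07, adjusted p = 0.0453) had fallen. The median of the 9 in that comparison was -1.07. Without 24 h replicate 2, 1 of the 9 was higher and 5 were lower at 12 h against 0 h, where 49.2% of all probes were called. In that fit 6 were higher and 0 lower at 24 h against 12 h, against 15.8% of all probes. The listed marker Gpnmb was well above background on no array, and the part of macrophages in the Spp1 values was not tested.

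Afp encodes alpha-fetoprotein, the main plasma protein of the fetal liver, which is shut down after birth. It stood at -1.89, -1.58 and -1.88 at 0 h, -1.36, -2.24 and -1.80 at 1.5 h, -3.16, -3.08 and -2.74 at 12 h, and -1.74, -2.51 and 0.27 at 24 h. All 3 arrays at 12 h lay below the other 9, and the 24 h arrays spanned 2.78 log2 units, with the highest and the fourth lowest value of the series among them. In the order of means (24 h, 0 h, 1.5 h, 12 h) 24 h overlapped 0 h and 0 h overlapped 1.5 h. Afp was -1.21 ± 0.57 at 12 h against 0 h, which did not pass (95% interval -2.46 to 0.04; adjusted p = 0.164). The difference between 24 h and 12 h was 1.67 ± 0.57 (95% interval 0.42 to 2.92; adjusted p = 0.0664). Both passed without 24 h replicate 2: Afp fell by 1.21 ± 0.43 at 12 h against 0 h (2.32-fold lower, adjusted p = 0.0403) and rose 4.78-fold at 24 h against 12 h (log2 2.26 ± 0.48, adjusted p = 0.0144). Without 24 h replicate 3, the array at 0.27, the difference between 24 h and 12 h was 0.87 and did not pass (adjusted p = 0.0695). With normexp background correction the differences were -0.36 at 12 h against 0 h (adjusted p = 0.76) and 0.46 at 24 h against 12 h (adjusted p = 0.542). At 24 h against 0 h Afp differed by 0.46 ± 0.57 (adjusted p = 0.675), by 1.05 without 24 h replicate 2 (adjusted p = 0.162) and by -0.34 without 24 h replicate 3. On slide 2 Afp averaged -3.12 on 2 arrays at 12 h against -2.02 on 2 arrays at 1.5 h with no overlap, and on slide 3 it averaged -0.74 on 2 arrays at 24 h against -2.74 on 1 array at 12 h.

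**Figure D2:**
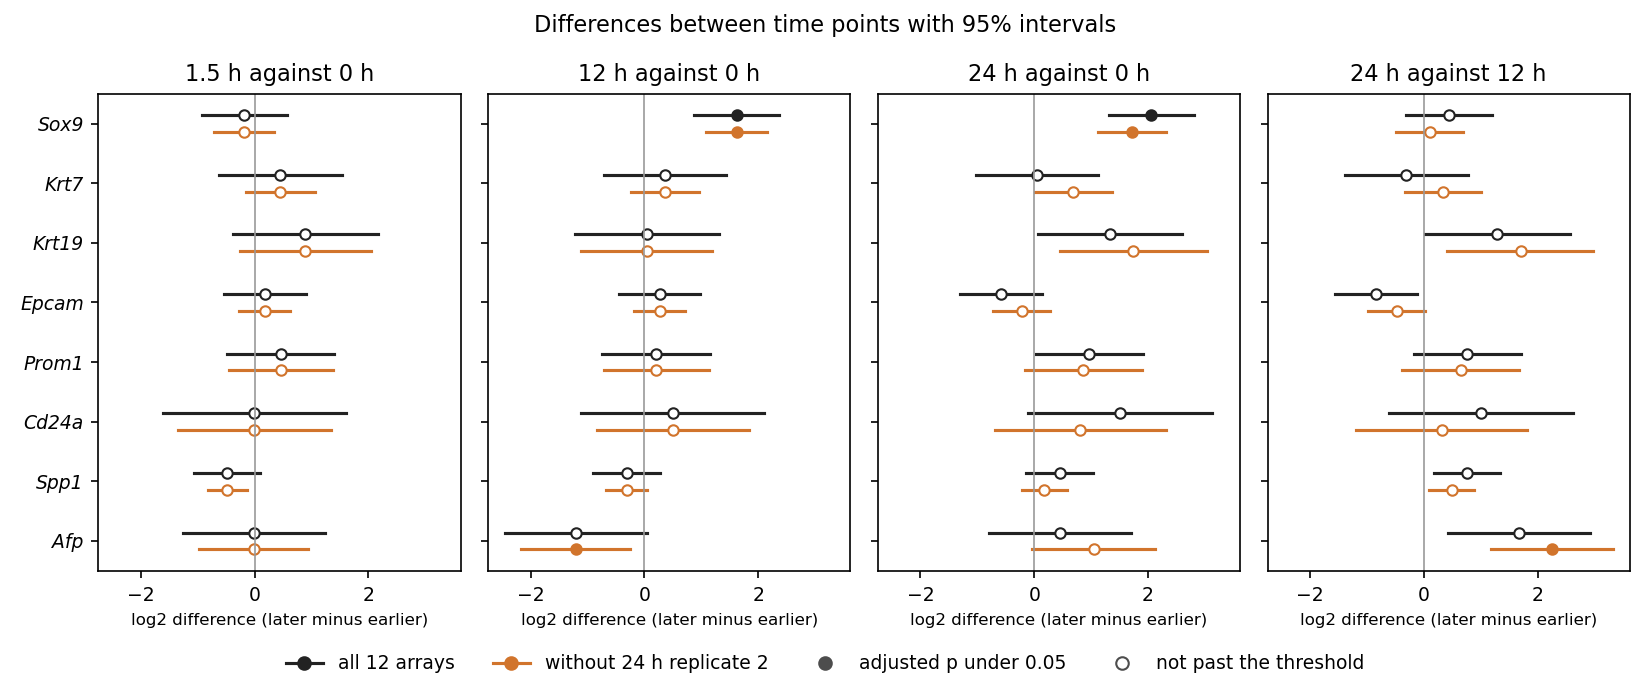
Difference in normalised log2 signal (later minus earlier, horizontal axis) of each gene in 4 comparisons, with 95% intervals, for the fit of all 12 arrays and the fit without 24 h replicate 2; filled points have an adjusted p under 0.05. Sox9 is filled at 12 h and 24 h against 0 h in both fits, and Afp at 12 h against 0 h (-1.21) and 24 h against 12 h (2.26) in the second fit.

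Counted together, 0 of the 8 genes passed at 1.5 h against 0 h (limma; also 0 with an unadjusted p under 0.05), where 0.0225% of all probes were called. At 12 h 1 of 8 passed against 15.3% of all probes, at 24 h against 0 h 1 of 8 against 5.46%, and at 24 h against 12 h 0 of 8 against 13%. An unadjusted p under 0.05 in limma was found for 0, 1, 3 and 4 of the 8 genes in these 4 comparisons. Of all 31168 probes, 2001, 10145, 6547 and 12597 had such a p in the same order. The F test over the 3 later times called 1 of 8, against 16.2% of all probes. With so few genes, these shares do not set the group apart from the background of the array. Leaving out 24 h replicate 2 gave 0, 2, 1 and 1 of 8 in the same order of comparisons, against 0.594%, 49.2%, 17% and 15.8% of all probes, and the F test called 3 of 8 against 44.3%. The 3 arrays of 1 time point lay wholly above or below those of the other for 4 of 8 genes at 1.5 h against 0 h, 3 at 12 h, 5 at 24 h against 0 h and 3 at 24 h against 12 h. Over all probes such separation occurred for 25.6%, 61.5%, 27% and 41.6%. The median log2 difference of the 8 genes was 0.08, 0.24, 0.72 and 0.76, and that of all coding probes 0.07, 0.24, -0.06 and -0.14. Leaving out 24 h replicate 2 moved the last 2 to 0.84 and 0.41 for the 8 genes, and to 0.11 and -0.08 for all coding probes. The comparisons at 12 h and 24 h against 0 h share the 0 h arrays.

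Within a time point some of the genes were high or low on the same arrays, which the plot of deviations from the time-point means shows. At 12 h replicate 2 was the highest of the 3 arrays for 6 of the 8 genes, and replicate 3 the lowest for each gene but Afp. Replicate 3 at 12 h lay on slide 3, and replicates 1 and 2 on slide 2. It had 63.25% of all probes well above background, against 85.26% and 84.84% on replicates 1 and 2. At 24 h replicate 3 was highest for 5 genes and replicate 2 for the other 3 (Sox9, Cd24a and Spp1). For neither time point was the share of all probes with the same order computed. Over the 11 arrays without 24 h replicate 2, deviations from the time-point mean correlated at 0.95 between Krt7 and Prom1, 0.95 between Krt19 and Cd24a, 0.89 between Krt7 and Cd24a and 0.77 between Krt7 and Krt19. Over all 12 arrays the same pairs gave 0.31, 0.41, -0.16 and 0.74, so the first 3 of these relations rest on leaving out that array. Of all tested probes 1.47% exceeded 0.8 with Krt7 and 0.72% with Krt19. The 20 other bile duct genes measured, described below, had a median of 0.23 with Krt7 (1 above 0.8) and of 0.23 with Krt19 (3 above 0.8) over the 11 arrays. Sox9 and Afp deviated differently, at 0.28 and 0.29 with Krt7 (-0.55 and 0.69 over all 12 arrays). The points share arrays and slides, and the values are descriptions with no test.

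**Figure D3:**
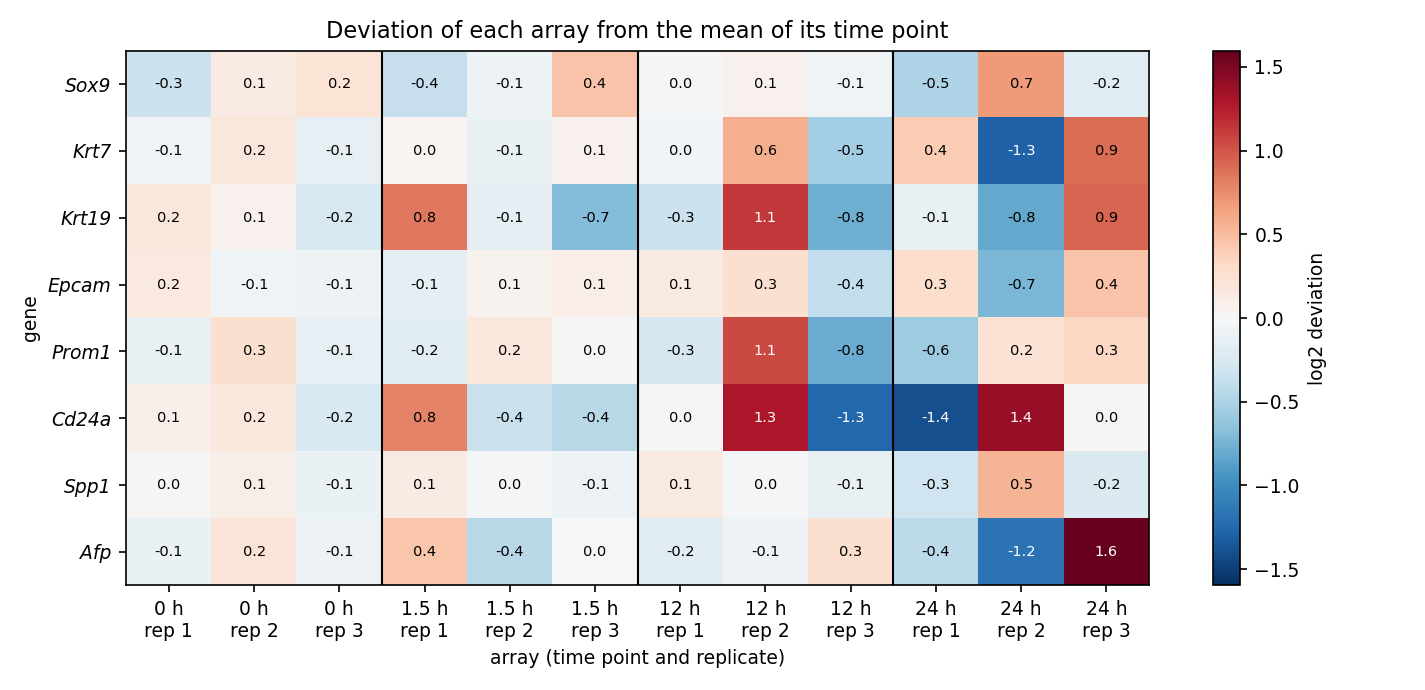
Deviation of each array (columns, 3 replicates at each of 0, 1.5, 12 and 24 h) from the mean of its time point, in log2 units, for each gene (rows), with red above and blue below the mean. Krt7, Krt19, Prom1 and Cd24a are all above their means on 12 h replicate 2 and below them on 12 h replicate 3, while 24 h replicate 2 is low for Krt7, Krt19, Epcam and Afp and high for Sox9, Cd24a and Spp1.

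For each gene the genes most like it in profile over those 11 arrays, with the value over all 12 arrays beside it, were as follows. Sox9 was most like Oplah (r = 0.98, and 0.732 over 12 arrays) and Zfp119a (0.972 and 0.978). Krt7 and Prom1 were most like each other (0.94 and 0.21), followed by Gcnt3 for Krt7 (0.904 and 0.0164) and Chrdl2 for Prom1 (0.893 and 0.872). Krt19 was closest to Degs2 (0.977 and 0.96) and Plxnb3 (0.879 and 0.704), and Epcam to Mdk (0.973 and 0.987) and Apoc1 (0.965 and 0.99). Cd24a was closest to Clca3a2 (0.878 and 0.689) and Ptgir (0.844 and 0.821), Spp1 to Parp14 (0.918 and 0.544) and Pibf1 (0.91 and 0.962), and Afp to Pigp (0.939 and 0.805) and D230025D16Rik (0.93 and 0.7). These are the highest values among all named genes, so high correlations are built into the choice.

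The related lists below have the background given above: 15.3%, 5.46% and 13% of all probes were called at 12 h against 0 h, 24 h against 0 h and 24 h against 12 h. For counts at an unadjusted p under 0.05 in limma, the background was 2001 of 31168 probes at 1.5 h against 0 h. It was 6547 at 24 h against 0 h. Of 23 other genes of bile ducts listed, 20 passed the filter; Cftr, the chloride channel of duct cells, was well above background on no array, and the secretin receptor Sctr and Ggt1 on 2 each. At 12 h against 0 h 2 rose and 1 fell, a share near that of all probes, with a list median of 0.03. Krt18, a keratin shared by hepatocytes and duct cells, rose 2.07-fold (log2 1.05 ± 0.28, adjusted p = 0.0318). The adhesion molecule Cdh1 fell by 2.15 ± 0.36 (adjusted p = 0.00302), to between 0.68 and 1.21 at 12 h, against 2.94 to 3.27 at 0 h. At 24 h against 0 h Krt23 fell by 1.53 ± 0.38 (adjusted p = 0.0422), and the other 19 did not pass. At 24 h against 12 h Cdh1 (log2 1.83, adjusted p = 0.0154) and the epithelial transcription factor Ehf (1.11, adjusted p = 0.037) rose. Without 24 h replicate 2 the 12 h counts were 3 higher and 4 lower of 20, against 49.2% of all probes called in that fit, with the tight junction gene Cldn7 (-1.08) among the lower, and at 24 h against 0 h they were 1 higher and 1 lower. In that fit 3 were higher and 1 lower at 24 h against 12 h, Cldn7 (1.25) among the higher. At 1.5 h none of the 20 passed in limma (0 with an unadjusted p under 0.05), Onecut1 having the smallest adjusted p (0.771).

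Genes of the progenitor niche, meaning stem cell markers, mesenchymal partners and the receptors of their signals, included 11 measured of 12. At 12 h against 0 h 1 rose and 3 fell, with a median of -0.16. Tnfrsf12a, the receptor of the cytokine TWEAK that acts on liver progenitors, rose 8.70-fold (log2 3.12 ± 0.48, adjusted p = 0.0019), to between 4.58 and 5.42 at 12 h, against 1.38 to 2.15 at 0 h. Lgr5, a receptor for R-spondins that enhances Wnt signalling in hepatocytes around the central vein and in injury-induced duct progenitors, fell by 2.87 ± 0.40 (adjusted p = 0.00131), and Thy1 (-1.09, adjusted p = 0.0124) and the HGF receptor Met (-0.78, adjusted p = 0.04) also fell. At 24 h Tnfrsf12a was still 4.20-fold higher than at 0 h (adjusted p = 0.0316). At 24 h against 12 h Lgr5 (log2 3.26, adjusted p = 0.00295), Met (1.46, adjusted p = 0.00637), Cd44 (1.30, adjusted p = 0.0365) and Kit (1.37, adjusted p = 0.0432) rose and none fell. Of these, Cd44 passed at 2 of its 3 probes, and Kit did not pass without 24 h replicate 2 (0.96, adjusted p = 0.0529), a fit in which the niche genes counted 2 higher and 3 lower of 11 at 12 h against 0 h (49.2% of all probes) and Thy1 was lower at 24 h against 0 h (-0.83, adjusted p = 0.0321). Lgr5 was well above background on 2 of the 3 arrays at 12 h, as were Mest, Amotl2, Itga8 and Itgb5 named below. At 1.5 h none of the 11 passed in limma, nor had any an unadjusted p under 0.05.

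Among 9 measured fetal liver genes of 10 listed, the imprinted gene Mest fell by 2.46 ± 0.38 at 12 h against 0 h (adjusted p = 0.00197) and rose by 2.62 ± 0.38 at 24 h against 12 h (adjusted p = 0.00473). The mean of Afp was -3.00 at 12 h, and both comparisons of Mest share the 12 h arrays. Dlk1, a surface protein of hepatoblasts, fell by 1.68 ± 0.50 at 24 h against 12 h (adjusted p = 0.0498), and none of the 9 passed at 24 h against 0 h, the nearest being Gpc3 (adjusted p = 0.186). The fetal genes counted without 24 h replicate 2 were 4 higher and 1 lower of 9 at 12 h against 0 h, near the 49.2% of all probes, with Dlk1 (log2 1.06) among the higher. In the same fit 1 was higher at 24 h against 0 h, namely Gpc3 (adjusted p = 0.0148), which was well above background on no array at 0 h and has no fold, while Dlk1 did not pass at 24 h against 12 h (-1.10, adjusted p = 0.0706). Of 11 factors that regulate Afp or specify hepatocytes, Cebpa fell by 1.15 ± 0.28 at 12 h against 0 h (adjusted p = 0.0213) and Nr5a2 rose by 1.68 ± 0.37 at 24 h against 12 h (adjusted p = 0.0225). Zbtb20, the repressor that silences Afp after birth in mice, stood at 1.87, 1.85 and 0.62 at 24 h, against 2.65, 2.41 and 2.74 at 0 h, without overlap (-1.15 ± 0.40, adjusted p = 0.125), and fell by 1.35 without 24 h replicate 2. At 12 h against 0 h 1 of the 11 factors was then higher and 3 were lower (49.2% of all probes), against 0 and 1 with all arrays. At 1.5 h none of the 9 fetal genes passed in limma (1 with an unadjusted p under 0.05, Mest with adjusted p = 0.661) and none of the 11 factors (2 with an unadjusted p under 0.05, Foxa2 with adjusted p = 0.147, and 0.0334 without 24 h replicate 2); at 24 h against 0 h none of either passed, with 1 and 2 at an unadjusted p under 0.05.

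The Notch and Hippo pathways both act upstream of Sox9 in duct formation. Of 14 measured Notch genes (16 listed), the ligand Dll4 fell by 1.78 ± 0.32 (adjusted p = 0.00431) and the receptor Notch2 by 1.20 ± 0.31 (adjusted p = 0.0255) at 12 h against 0 h, and the target Hey1 (log2 0.94, adjusted p = 0.0415) and Dll4 (1.16, adjusted p = 0.0412) rose at 24 h against 12 h. The target Hes1 stood at 0.33, 2.25 and -0.10 at 24 h, against -0.79, -0.90 and -0.44 at 0 h, without overlap and without passing (1.54 ± 0.52, adjusted p = 0.117). The array at 2.25 is 24 h replicate 2, without which the difference was 0.83 (adjusted p = 0.0838). Of 17 genes of the Hippo pathway and targets of its effector YAP, Ccn2 rose 2.66-fold (log2 1.41 ± 0.30, adjusted p = 0.00974) and Amotl2 fell by 1.18 ± 0.30 (adjusted p = 0.0239) at 12 h against 0 h. Ccn2 then fell by 1.09 at 24 h against 12 h (adjusted p = 0.0405), Amotl2 rose by 1.03 (adjusted p = 0.0477), and Axl was at least 2.61-fold higher (adjusted p = 0.0277), being well above background on 2 arrays at 24 h and on none at 12 h. In the fit without 24 h replicate 2 the Hippo list counted 4 higher and 2 lower of 17 at 12 h against 0 h, and the Notch list 0 and 3 of 14, both below the 49.2% of all probes. Neither list had a gene past the threshold in limma at 1.5 h (1 in each with an unadjusted p under 0.05) or at 24 h against 0 h (2 Notch and 3 Hippo genes). Of all 31168 probes, 2001 and 6547 had such an unadjusted p in these 2 comparisons. The medians at 12 h against 0 h were -0.07 for the Notch list and 0.14 for the Hippo list.

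Receptors that bind osteopontin, the product of Spp1, were all 8 measured. At 12 h against 0 h the integrin subunits Itga8 (-2.34, adjusted p = 0.00147), Itgb5 (-2.17, adjusted p = 0.00947) and Itga9 (-1.16, adjusted p = 0.0164) fell, 3 of 8 against 15.3% of all probes, with a list median of -0.66. The later interval, 24 h against 12 h, had Itgb5 (log2 1.79, adjusted p = 0.0343), Cd44 (1.30, adjusted p = 0.0365) and Itga8 (1.18, adjusted p = 0.0461) higher, and Itgb3 fell by 1.43 (adjusted p = 0.0403), with a list median of 0.92. Both probes of Itgb5 passed in the same directions. Without 24 h replicate 2 the receptors counted 2 higher and 4 lower of 8 at 12 h against 0 h (49.2% of all probes), and Itgb3 did not pass at 24 h against 12 h (-1.20, adjusted p = 0.0581). No receptor passed in limma at 24 h against 0 h (2 with an unadjusted p under 0.05), where Itga8 came nearest (-1.16, adjusted p = 0.0751), or at 1.5 h (1 with an unadjusted p under 0.05).

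**Figure D4:**
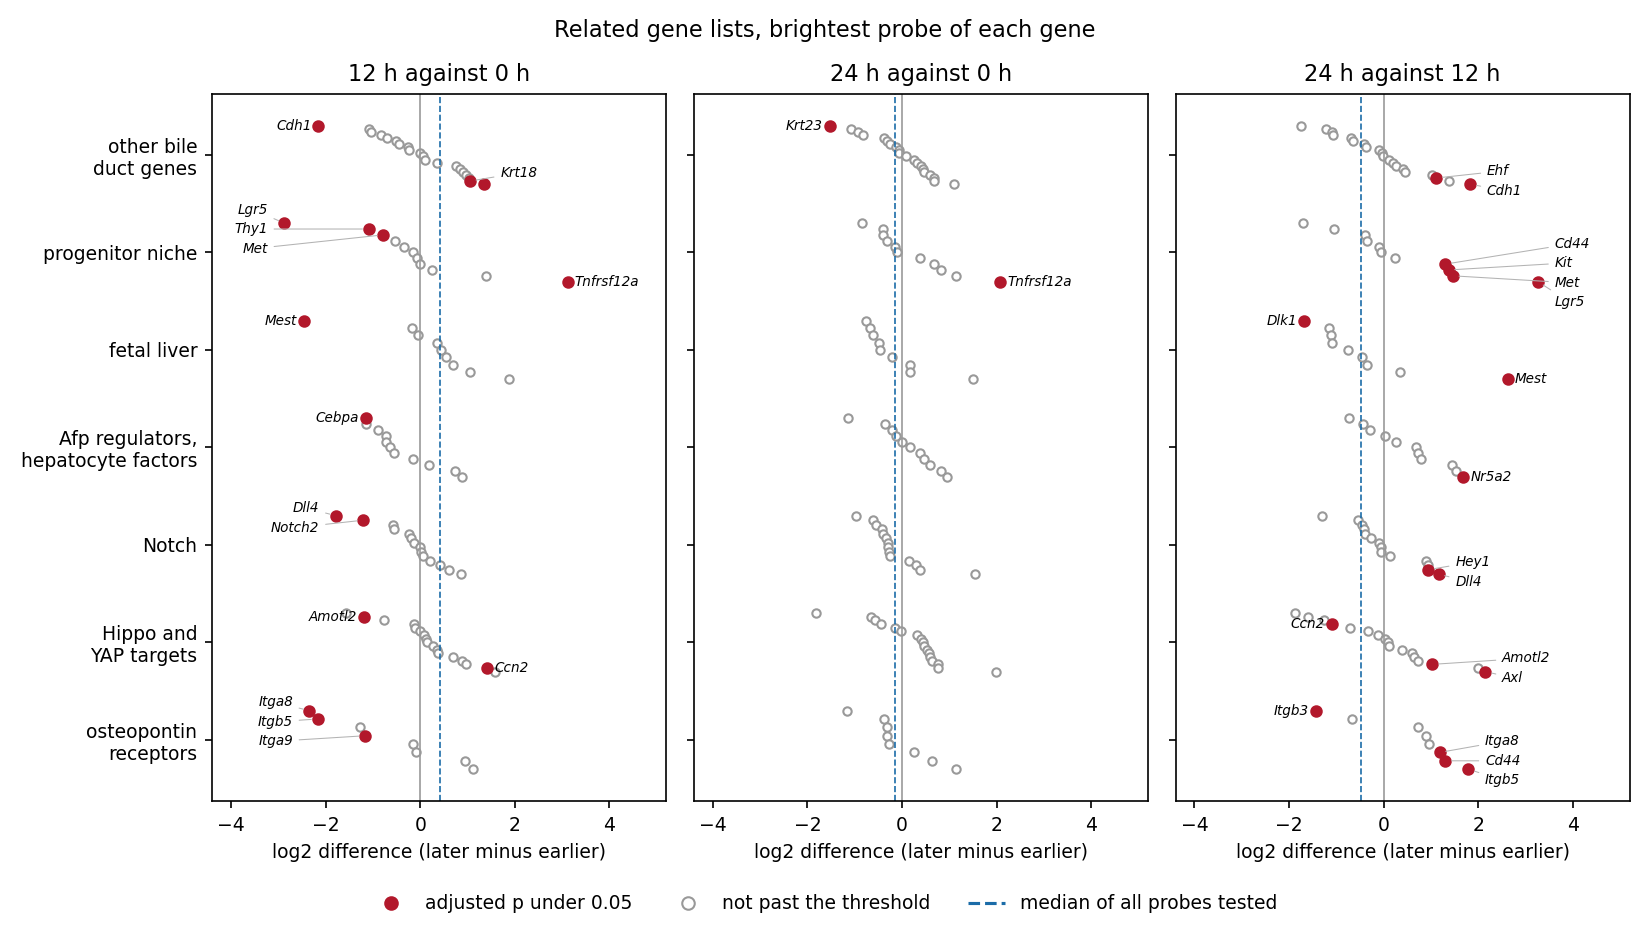
Difference in normalised log2 signal (horizontal axis, later minus earlier) of the genes of 7 related lists, 1 point per gene at its brightest probe, for 12 h against 0 h, 24 h against 0 h and 24 h against 12 h; red points, of which 1 bears no name, have an adjusted p under 0.05 and the dashed line is the median of all tested probes. Cdh1, Lgr5, Met, Mest, Dll4, Amotl2, Itga8 and Itgb5 are red on the negative side at 12 h against 0 h and on the positive side at 24 h against 12 h, 2 comparisons that share the 12 h arrays.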

How the data were processed

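Per the labels' protocols, total RNA was amplified, labelled with Cy3 and hybridised to 1-colour Agilent arrays. Agilent Feature Extraction 10.5.1.1 read them, per the submitters' processing notes. The deposited scanner files give, per spot, a processed intensity on a linear scale, a median spot and background intensity and quality marks. A second deposited table holds the authors' log2 values of 20271 probes, without Cd24a; how it was normalised is not given in the sources used here, and it served as an alternative. No per-sample column of it was left unmapped. Signal over background and the 3 arrays per time point limit the precision.

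From 37831 non-control spots of 39448, outlier spots were dropped and the spots of a probe averaged after log2, and the 75th percentile of each array was subtracted. The filter kept a probe called well above background on 3 or more of the 12 arrays. Names came from RefSeq's mouse gene table (GRCm38.p6), matched on accession for 22216 of 37246 probes.

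Tests used limma (version 3.58.1, under R 4.3.3), with 1 mean per time point over all 12 arrays, lmFit and eBayes, two-sided, and Benjamini-Hochberg adjustment over the 31168 kept probes at a threshold of 0.05. Values after ± are this model's standard errors; the model pools the spread of all time points, so 24 h replicate 2 enters each comparison. Nothing in the labels says that the 3 mice of a time point were handled apart, so p-values measure the spread between these samples, which may be partly technical. A group whose arrays were all not well above background gives a bound, with each signal raised to the lowest one on its array that passed this call. A list is represented by the brightest probe of each gene. The named list genes are up to 4 past the threshold per comparison by adjusted p, or the one nearest to it. Marco and genes named for their call without 24 h replicate 2 were chosen after their values were seen. A few of the list genes are counted but not reported by name here. The genes and lists were chosen with earlier results of these data known. Summed marker levels add linear signals relative to the 75th percentile. The fit was tested on simulated data with known changes. Alternatives were normexp (offset 50), quantile normalisation, the authors' values, no filter or one on all 12 arrays, robust moderation with a trend, array weights, slide or replicate number as a block, fits of the compared groups alone, and omission of each array in turn.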

Additional observations from a re-analysis of the deposited data

How the results depend on the processing

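Counts are of the 8 genes past the threshold, where the fit of all arrays gave 0, 1 and 1 for the 1.5, 12 and 24 h times against 0 h, 0 for 24 h against 12 h and 1 by the F test. Normexp background correction gave 0 at 12 h and 0 at 24 h against 0 h. Quantile normalisation gave 2 at 12 h (Sox9 and Afp), 1 at 24 h against 12 h (Afp) and 2 by the F test, and the authors' values, which lack Cd24a, gave 2, 1 and 3 for the same. Robust moderation gave 1 at 24 h against 12 h (Spp1) and 2 by the F test, and keeping only probes well above background on all 12 arrays gave 2 at 24 h against 12 h (Spp1 and Afp). Slide as a block gave 0 for both the 12 h and the 24 h time against 0 h, and 1 for 24 h against 12 h (Krt19). That call set 2 arrays at 24 h against 1 array at 12 h on slide 3. Only the groups compared gave 2 at 12 h and 0 at 24 h against 0 h. Array weights gave 1, 2, 4 and 4 in the 4 comparisons and 5 by the F test, but that fit stopped before it converged, with a weight of 22.2 for 24 h replicate 1 and 0.0331 for 24 h replicate 2. Leaving out each array in turn gave 0 to 2 at 12 h (0 without 0 h replicate 1, 2 without 24 h replicate 2 or 3), 0 to 2 at 24 h against 12 h (1 and 2 without 24 h replicates 2 and 3) and 1 to 3 by the F test (3 and 2 without the same arrays), and left the other counts at 0 and 1. Sox9 passed in 19 of 22 settings at 12 h (log2 1.09 to 1.73) and in 19 of 22 at 24 h against 0 h (1.25 to 2.31). The cause of these changes was not tested.

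Over all 31168 probes, 7, 4775, 1701 and 4063 passed in the 4 comparisons and 5058 by the F test. The counts were 2, 673, 189, 191 and 684 with normexp, 17, 1294, 83, 2764 and 4745 with slide as a block, and 13328, 20122, 16615, 19834 and 26588 with array weights. Only the groups compared gave 0, 15586, 121 and 0. Leaving out 24 h replicate 2 gave 185, 15342, 5288, 4916 and 13803, and leaving out each array in turn gave 0 to 185, 2246 to 15342, 415 to 5288, 384 to 10795 and 2346 to 13803. At 1.5 h 20 passed with the authors' values, 17 with the filter on all 12 arrays and 15 with robust moderation. With no filter 2586 passed at 24 h against 12 h.

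Replicate numbers did not pair the mice: deviations of same-numbered arrays correlated between -0.42 and 0.41, and 2 of 18 pairs exceeded 0.1. With the replicate number as a block Sox9 passed at 12 h (1.62, adjusted p = 0.0142) and 24 h (2.06, adjusted p = 0.0137), no other gene did, and 0, 3603, 1158, 1261 and 3137 probes passed.

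Of the single-gene values 31 turned their direction in a setting, 636 kept direction and call, 23 gained the call and 6 lost it. None of the 31 was past the threshold in the fit of all arrays. With slide as a block, Afp (0.42) and Cd24a (0.79) turned positive at 1.5 h, Epcam at 24 h against 0 h (0.15) and Krt7 at 24 h against 12 h (0.88). With normexp, Cd24a at 24 h against 12 h (-0.06), Epcam at 1.5 h (-0.07) and Krt7 at 24 h against 0 h (-0.32) turned negative. At 12 h Krt19 (-0.08) and Prom1 (-0.03) turned negative with both quantile normalisation and the authors' values. With array weights, Cd24a (-0.54), Krt7 (0.03) and Sox9 (-0.04) at 24 h against 12 h and Sox9 at 1.5 h (0.02) turned. Leaving out single arrays turned Afp at 1.5 h (range -0.24 to 0.20) and 24 h (-0.34 to 1.05), Cd24a at 1.5 h (-0.41 to 0.21) and 12 h (-0.15 to 1.13), Krt19 at 12 h (-0.52 to 0.43), Krt7 at 24 h against 0 h (-0.40 to 0.69) and against 12 h (-0.76 to 0.33), Prom1 at 12 h (-0.31 to 0.60) and Sox9 at 1.5 h (-0.41 to 0).

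With 3 mice per time point, the 95% intervals of the 8 genes in the fit of all arrays each spanned more than 1 log2 unit, which limits what was detectable. Time of day and surgery cannot be told apart from time after hepatectomy, and slide can be told apart only through the 1.5 h and 12 h arrays that link slides 1 to 3. The probe of Cd24a lay nearest to background.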
